A study of Mus musculus with 21 samples.

Results

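At postnatal day 6 (P6) the dorsal and the lateral subventricular zone (SVZ) of CD1 mice were compared in 6 of 21 small RNA libraries, 3 from each wall, chosen by their labels for wall and age. The table of the series named 1445 microRNA features, and 1187 of them were above 0 in at least 1 of the 6 libraries. Tests covered 807 of them, those that reached a value of 10 in 3 or more of the 21 libraries: 397 mature forms, 183 star forms (the other arm of a hairpin, written with an asterisk) and 227 hairpins (written pre-mir or pre-let). The 638 features under that minimum were not tested.

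The labels name dissected brain tissue with no genotype, treatment or sorting of cells, so each library holds whatever cell types the dissection held. All groups used here share the strain CD1: dorsal SVZ at P6, lateral SVZ at P6, the same walls at P1 (3 libraries each), the rostral migratory stream (RMS) at P15 (1 library) and P28 (2 libraries), and the olfactory bulb (OB) at P15 and P28 (3 libraries each). The labels do not say that the replicates came from separate animals, so a p-value here measures only the spread between these samples. In bulk tissue, fewer cells of a type and less RNA per cell cannot be told apart.

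MicroRNAs are short RNAs cut from hairpin precursors, and they repress messenger RNAs that match their seed, the bases near their 5′ end. Stem cells along the ventricle make different OB interneurons according to their position, and the lateral and dorsal walls differ in the transcription factors they carry, Pax6 being more prominent dorsally. miR-7a is known to repress Pax6 in this region, and the SVZ also makes oligodendrocytes, which require miR-219 and miR-338.

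The mature sequences below come from RefSeq with the build GRCm38.p6 and carry their seed, bases 2 to 8, in capitals. The first are the forms with much higher scores in the lateral wall, on which the comparison turns, with miR-7b and miR-344c shown because each shares its seed with a relative above it, and miR-132 with miR-212-3p for the same reason.
miR-153: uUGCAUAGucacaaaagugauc
miR-551b: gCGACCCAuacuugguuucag
miR-708: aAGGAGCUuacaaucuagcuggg
miR-218: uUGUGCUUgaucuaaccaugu
miR-7a: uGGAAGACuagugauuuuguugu
miR-7b: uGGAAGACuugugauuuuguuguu
miR-344: uGAUCUAGccaaagccugacugu
miR-344c: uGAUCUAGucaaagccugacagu
miR-132: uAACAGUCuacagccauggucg
miR-212-3p: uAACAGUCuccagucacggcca
miR-127: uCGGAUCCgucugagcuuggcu
miR-411: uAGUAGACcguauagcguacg
Counted from 1 at the 5′ end, miR-7b differs from miR-7a by A10U over the shared length, and miR-344c differs from miR-344 by C9U and U21A. Neither change touches the seed.

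The next forms were higher in the dorsal wall, or are the seed partner or opposite arm of one that was. miR-100 and miR-99a share the seed ACCCGUA and differ by A16U. miR-25 and miR-92a share AUUGCAC. miR-9* and miR-9 are the arms of the same hairpins.
miR-195: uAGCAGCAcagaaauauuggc
miR-100: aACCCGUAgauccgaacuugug
miR-99a: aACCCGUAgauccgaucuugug
miR-25: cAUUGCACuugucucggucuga
miR-92a: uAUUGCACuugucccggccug
miR-9*: aUAAAGCUagauaaccgaaagu
miR-9: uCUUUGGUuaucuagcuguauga
The hairpin that the largest dorsal-side difference belongs to is Mir219a-2, on the minus strand of chromosome 2 in GRCm38.p6. It is shown here 5′ to 3′ with miR-219-5p, its 5′ arm, in capitals.
pre-mir-219-2: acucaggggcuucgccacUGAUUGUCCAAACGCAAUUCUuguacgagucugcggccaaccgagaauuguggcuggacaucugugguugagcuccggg

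Most of the differences at P6 lay on the lateral side. In limma's moderated test with Benjamini-Hochberg adjustment, 164 of 807 features passed an adjusted p of 0.05 (20.3%), 22 of them higher (2.73%) and all others lower (17.6%) in the dorsal wall. At least a 2-fold difference was found in 152 of the 164, and 161 of them had libraries that did not overlap between the walls, against 308 of all 807 (38.2%). An unadjusted p under 0.05 was found for 240. When 1 P6 library was left out, higher calls numbered 11 (without dorsal library 1) to 19 and lower calls 104 to 130. The median log2 difference, dorsal minus lateral on log2(score + 1), was -0.26 over all features, with quartiles of -1.14 and 0.29.

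That balance is relative to the deposited scaling. With TMM factors the median of all features moved to 0.09 and the split to 84 higher and 116 lower. With each library set to its median microRNA the median was 0.18, with 90 higher and 104 lower. Division by the total microRNA score gave a median of -0.17, with 39 higher and 136 lower. All 22 higher calls were kept under each of these scalings, and of the lower calls 116, 104 and 134 were kept. As each scaling moved the median toward the dorsal side, the keeping of the higher calls is little test of them. MicroRNAs took 70.1% to 74.8% of the total score in the dorsal and 79.7% to 81.6% in the lateral libraries, and features of tRNA 10.3% to 11.1% and 5.31% to 6.51%. The part of these shares in the wall differences was not tested.

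**Figure D1:**
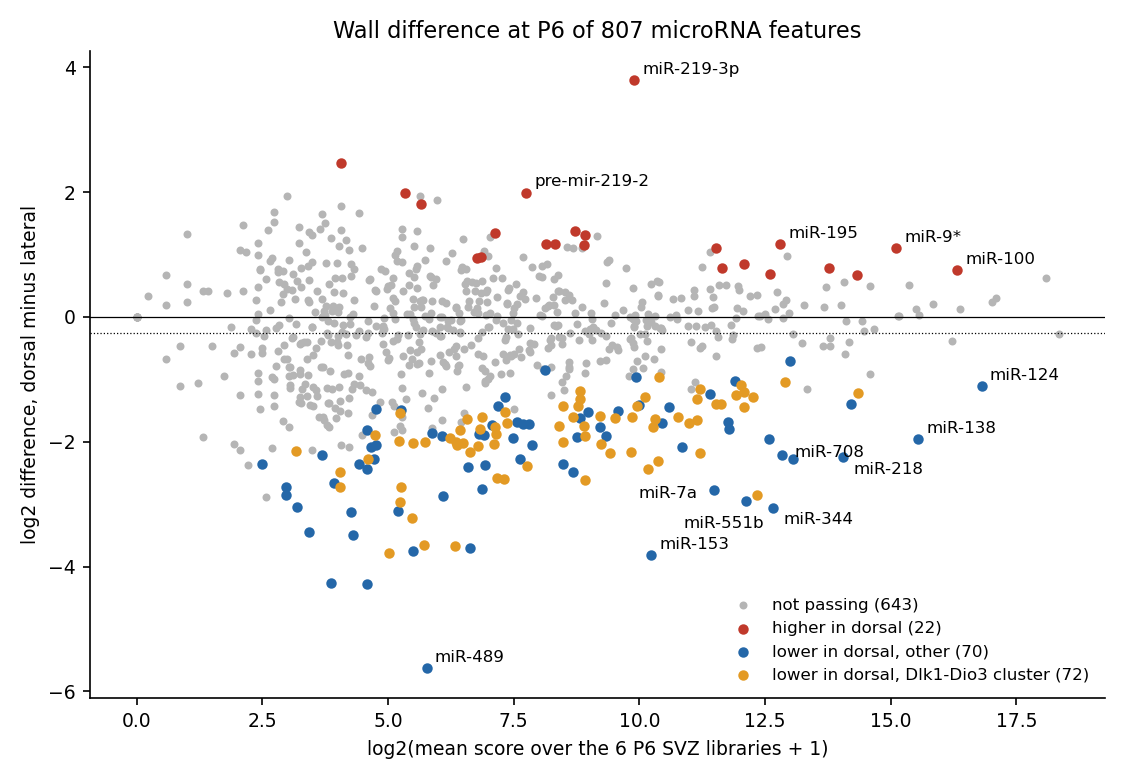
Log2 difference (dorsal minus lateral SVZ at P6) of each of 807 features against its mean score in the 6 libraries; the dotted line is the median of all features, -0.26. The 72 passing features of the Dlk1-Dio3 cluster and 70 others lie below 0, and 22 passing features lie above it, with miR-219-3p the highest.

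Neuron-enriched microRNAs formed one large group on the lateral side. miR-153, from an intron of Ptprn2, a gene of secretory vesicles in neurons and endocrine cells, had a mean score of 163 ± 45.1 (SD, n = 3) in the dorsal libraries, and scores of 2226, 2071 and 2440 in the lateral libraries. Every lateral library lay far above every dorsal one, a 13.8-fold ratio of the means (log2 difference -3.81 ± 0.26 SE, limma adjusted p = 6.82e-10). Its hairpin, pre-mir-153, moved the same way, with 8, 31 and 8 against 193, 209 and 140 (-3.70 ± 0.52, limma adjusted p = 1.82e-05).

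miR-218, encoded in introns of the axon guidance genes Slit2 and Slit3 and known from motor neurons, had scores of 6364, 5206 and 6069 in the dorsal and 25159, 35887 and 23882 in the lateral wall. The walls were separate, at a log2 difference of -2.25 ± 0.21 (limma adjusted p = 7.04e-08). Its opposite arm from the Slit3 copy, miR-218-2*, was scarce in both walls, at 6, 11 and 4 against 84, 62 and 49 (-3.11 ± 0.61). The opposite arm from the Slit2 copy, miR-218-1*, had a log2 difference of 0.87 and did not pass (limma adjusted p = 0.46).

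miR-137, a regulator of neuronal maturation, scored 3556, 2191 and 1987 against 8977, 10030 and 10076, without overlap (-1.96 ± 0.22, limma adjusted p = 1.04e-06). miR-138, which limits dendritic spine growth, scored 20230, 22734 and 15941 against 76103, 75945 and 74762 (-1.96 ± 0.24, limma adjusted p = 2.04e-06). The near-equal lateral values of miR-138 follow from the normalization: its rank among all features of the table was 7 in each of the 3 lateral libraries and 25 to 33 in the dorsal ones, and in these files a rank fixes the score up to 1 factor per library.

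miR-132 and miR-212, which neuronal activity induces through CREB, are neighbours on chromosome 11 and share the seed AACAGUC in their 3′ arms. All 4 tested mature forms of the pair were lower in the dorsal wall, beside 17.6% of all features. miR-132 scored 677, 552 and 445 against 1339, 1840 and 1271 (-1.41 ± 0.33, limma adjusted p = 0.00286), and miR-212-3p 127, 87 and 58 against 269, 373 and 217 (-1.68 ± 0.41). The lateral scores were the higher in every pairing of libraries.

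miR-124, the most familiar neuronal microRNA, was far less clear. Its scores were 37709, 104919 and 67299 in the dorsal and 161228, 67177 and 249522 in the lateral libraries, so that lateral library 2 fell between the dorsal ones. The log2 difference of -1.11 ± 0.38 passed narrowly (limma adjusted p = 0.0421). That call was lost when dorsal library 1 or 3 or lateral library 1 or 3 was left out, with adjusted p between 0.0024 and 0.258 over the 6 omissions, and it was lost under all 3 other scalings.

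Of 35 neuron-enriched features tested, 15 were lower in the dorsal wall (42.9%, beside 17.6% of all features), 0 were higher and 20 did not pass. Of the 35 differences 30 were negative, with a median log2 difference of -1.30 beside -0.26 over all features. The count was 12 with TMM factors and 12 relative to the median microRNA. Their summed score was 132549 to 187354 in the dorsal and 255257 to 425387 in the lateral libraries. A large part of these sums was miR-124, whose walls overlapped, with means of 69976 and 159309. Among those that did not pass, miR-128 stood at 0.13 (83678, 40876 and 28947 against 40281, 43681 and 43000).

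In the miR-7 family both main arms were lower in the dorsal wall. miR-7a scored 895, 573 and 649 in the dorsal and 4867, 7108 and 3064 in the lateral wall, a 7.1-fold ratio of means (-2.77 ± 0.27, limma adjusted p = 7.04e-08). miR-7b, its near-copy, scored 237, 92 and 67 against 668, 1018 and 389 (-2.49 ± 0.39, limma adjusted p = 5.59e-05). Both separated the walls fully, though with 1 base between them reads may be shared.

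The miR-7 hairpins are encoded apart, Mir7-1 in an intron of Hnrnpk on chromosome 13, Mir7-2 on chromosome 7 and Mir7b on chromosome 17. pre-mir-7a-1 was lower in the dorsal wall, at 62, 106 and 68 against 203, 274 and 158 (-1.42 ± 0.35, limma adjusted p = 0.00465). The opposite arm miR-7a-1* did not pass, although its scores were well above the minimum for testing, at 4146, 2667 and 3564 against 3771, 4313 and 3223 (-0.14 ± 0.21, limma adjusted p = 0.74). The walls overlapped for it.

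The arm from the other copy, miR-7a-2*, scored 639, 606 and 712 against 1401, 1555 and 928 (-0.96 ± 0.26, limma adjusted p = 0.00855). Without lateral library 2 its adjusted p was 0.0647, and relative to the median microRNA its call was lost. miR-7b* did not pass (-0.24 ± 0.42). In all, 5 of the 8 tested miR-7 features were lower (62.5%, beside 17.6% of all features) and 3 did not pass. The fifth, pre-mir-7a-2, stood at only 0, 0 and 4 against 17, 13 and 25 and lost its call in 4 of the 6 omissions (adjusted p up to 0.0929). Relative to the median microRNA 3 of the 8 were lower.

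**Figure D2:**
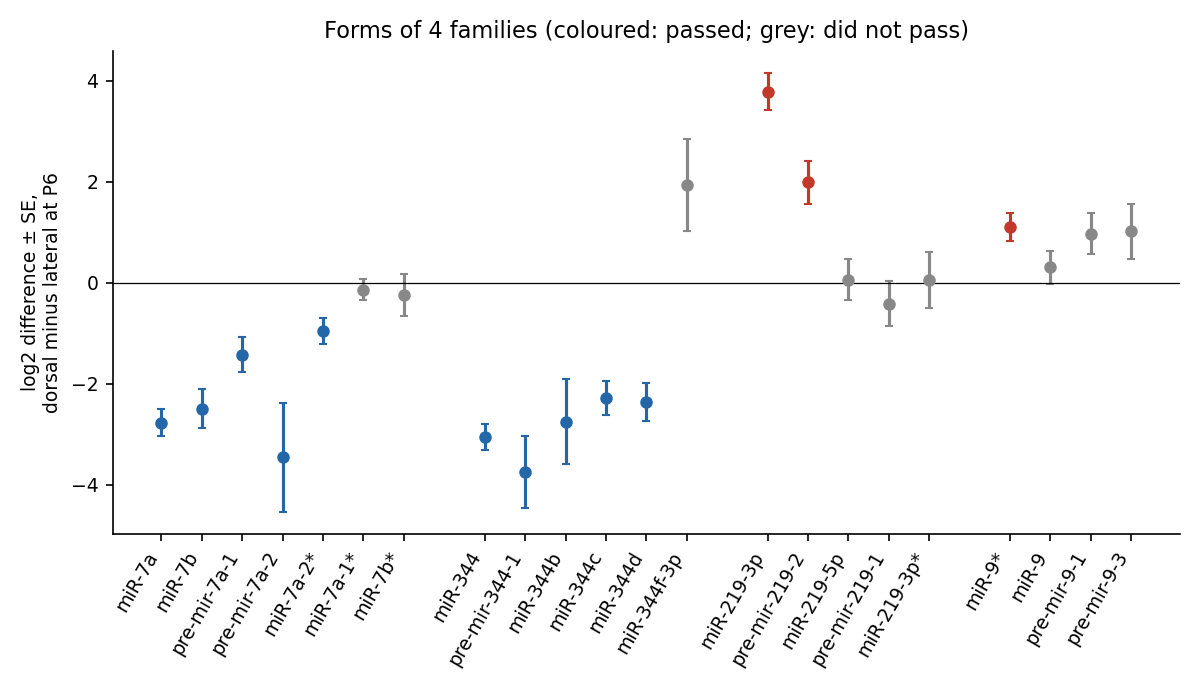
Log2 difference ± SE, dorsal minus lateral SVZ at P6 (3 libraries each), for the forms of 4 families; coloured points passed and grey ones did not. In the miR-7 and miR-219 families mature forms that passed stand beside arms of the same family near 0, such as miR-7a-1* (-0.14) and miR-219-5p (0.06).

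The rodent miR-344 family is a group of neighbouring genes on chromosome 7. Of its 21 named features 6 were tested, and 5 of these were lower in the dorsal wall (83.3%, beside 17.6% of all features). Its main form miR-344 scored 1876, 1641 and 857 in the dorsal and 11181, 12370 and 10984 in the lateral wall (-3.06 ± 0.26, limma adjusted p = 1.92e-08). miR-344c, which shares its seed, scored 63, 77 and 60 against 353, 353 and 275 (-2.28 ± 0.33), and miR-344d, with another seed, 122, 120 and 95 against 538, 823 and 438 (-2.36 ± 0.37). All 3 separated the walls.

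The hairpin pre-mir-344-1 went the same way (16, 11 and 0 against 66, 101 and 71; -3.75 ± 0.71). So did miR-344b (52, 31 and 14 against 187, 249 and 164; -2.75 ± 0.84, limma adjusted p = 0.0209), whose call was lost without dorsal library 3 or lateral library 2, with adjusted p up to 0.114, and with TMM factors. The sixth, miR-344f-3p, was near the floor of the table, at 8, 16 and 7 against 10, 1 and 0, and did not pass (1.93 ± 0.91). Mir344, Mir344b and Mir344c lie in the long noncoding gene A230057D06Rik.

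Several large lateral differences belonged to microRNAs outside the lists. miR-551b, from an intron of Egfem1, scored 865, 1176 and 1049 in the dorsal and 7933, 8228 and 7474 in the lateral wall, 7.65-fold by the means (-2.94 ± 0.26, limma adjusted p = 2.37e-08). miR-708, from an intron of the teneurin gene Tenm4, scored 2814, 2017 and 2969 against 12395, 12786 and 10709 (-2.22 ± 0.20, limma adjusted p = 2.89e-08). Within each wall these libraries lay close together, and the walls did not overlap.

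miR-489, from an intron of the calcitonin receptor gene Calcr, was listed at 0, 4 and 0 in the dorsal and at 130, 159 and 28 in the lateral libraries. Its log2 difference of -5.63 ± 1.00 (limma adjusted p = 0.000248) was the largest of the 807 in size and rests on dorsal values at the floor. miR-1247, from Dio3os at the edge of the Dlk1-Dio3 region, scored 30, 23 and 4 against 99, 161 and 88 (-2.87 ± 0.67).

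Outside the naming rule, and chosen after their values were seen, were miR-193b, miR-135b, miR-139-5p and miR-149. miR-193b scored 2743, 2896 and 3085 in the dorsal and 13418, 14632 and 14404 in the lateral wall (-2.28 ± 0.22, limma adjusted p = 7.04e-08). miR-135b had means of 704 and 2989 (-2.09), miR-139-5p, from an intron of Pde2a, 1595 and 5441 (-1.79), and miR-149, from an intron of the glypican gene Gpc1, 10594 and 27217 (-1.40), the first mean being the dorsal one. In total 39 of the lower features belonged to none of the lists.

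**Figure D3:**
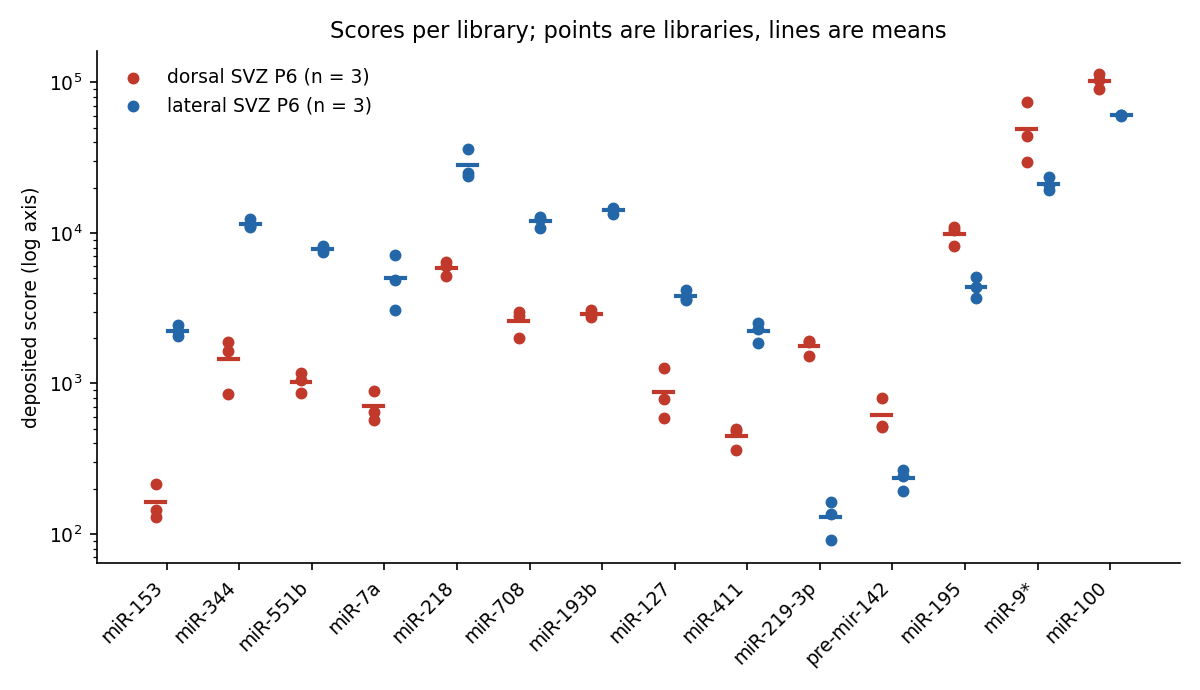
Deposited score of 14 microRNA features in each P6 SVZ library, on a log axis (points are libraries, lines the means of 3). In the first 9, from miR-153 to miR-411, all lateral libraries lie above all dorsal ones, and in the last 5, from miR-219-3p to miR-100, all dorsal libraries lie above all lateral ones. All 14 passed the test, and 161 of the 164 passing features did not overlap, so this separation follows largely from the choice of features.

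The imprinted Dlk1-Dio3 region on chromosome 12, whose microRNAs are transcribed from the maternal chromosome within a series of noncoding genes (Meg3, Rian, Mirg), supplied the largest group. The table named 157 features of the cluster. Tests covered 108, and 72 of these (66.7%) were lower in the dorsal wall, 0 higher and 36 not passing. The median was -1.64, and 107 of the 108 log2 differences were negative. The exception, pre-mir-487b, was at 12, 10 and 3 against 14, 2 and 6. Outside the cluster 70 of 699 features were lower (10%), with a median of -0.13.

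Mature and star forms made up 58 of the 72, out of 82 tested, and hairpins 14 of 26. Of the 72, 71 had every lateral library above every dorsal one, and their log2 differences ran from -0.96 to -3.78. As 161 of all 164 calls had walls that did not overlap, that count follows largely from the calls. Among the 108 tested features 87 did not overlap, beside 308 of all 807 (38.2%). The count was 61 with TMM factors and 56 with each library set to its median microRNA, with medians of -1.26 and -1.20. The summed score of the 108 tested features was 53338, 55565 and 82047 in the dorsal libraries, in order of size, and 144011, 161352 and 172531 in the lateral ones.

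The region holds 2 large arrays. In the array from Mir379 to Mir3072, 39 of 58 mature and star forms were lower and all 58 differences were negative, between -0.21 and -3.66, with a median of -1.63. In the array from Mir770 to Mir136, which lies within and beside Meg3 and the Rtl1 antisense transcript, 15 of 18 were lower, with a median of -1.70. The small group from Mir341 to Mir370 had 2 of 3 lower. Of all tested features 17.6% were lower.

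Single members spanned a wide range of levels. miR-127, which is processed from the transcript antisense to Rtl1, scored 1274, 788 and 585 in the dorsal and 3606, 3643 and 4191 in the lateral wall (-2.18 ± 0.27, limma adjusted p = 2.29e-06). miR-411 scored between 364 and 497 in the dorsal libraries against 2518, 2283 and 1850 (-2.30 ± 0.24, limma adjusted p = 2.91e-07). No dorsal library of either reached the lowest lateral one.

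Both arms of Mir540 were among the largest differences of the cluster, at low scores: miR-540-5p with 6, 5 and 1 against 58, 60 and 59 (-3.78 ± 0.74), and miR-540-3p with 4, 8 and 12 against 84, 99 and 55 (-3.22 ± 0.49). miR-376a was irregular, with 5124, 98 and 2517 in the dorsal against 7300, 7802 and 8328 in the lateral libraries (-2.85 ± 0.79, limma adjusted p = 0.0112). Without dorsal library 2 its log2 difference was -1.12, and that library alone lay far below the others. The miR-376 members have near-identical sequences, and whether their reads were divided differently between libraries was not tested.

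Another neighbour group lies in an intron of Htr2c, the serotonin 2C receptor gene on the X chromosome. All 4 of its tested mature forms were lower in the dorsal wall, beside 17.6% of all features, each at a low score. miR-764-5p scored 28, 72 and 26 against 191, 235 and 174 (-2.37 ± 0.63, limma adjusted p = 0.00855), and miR-1264-3p 21, 29 and 31 against 106, 140 and 72 (-1.90 ± 0.66, limma adjusted p = 0.0431). For miR-764-3p the values were 0, 4 and 7 against 15, 47 and 12, and for miR-1912* 4, 0 and 0 against 6, 13 and 18.

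The miR-130 and miR-301 family shares the seed AGUGCAA. The pair Mir301b and Mir130b on chromosome 16 was lower in the dorsal wall: miR-130b scored 720, 760 and 979 against 2751, 2095 and 1897 (-1.45 ± 0.29, limma adjusted p = 0.000736), and miR-301b 39, 56 and 47 against 224, 152 and 154 (-1.87 ± 0.38). The walls were apart in both. The abundant relative miR-130a did not pass, with 137523, 163611 and 125041 against 103391, 160893 and 101568 (0.25 ± 0.19), nor did miR-301a (-0.35 ± 0.18).

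Over the family 5 of 11 features were lower (45.5%, beside 17.6% of all features), 0 higher and 6 not passing, with a median of -0.85. The count of lower features was 4 with TMM factors and 3 relative to the median microRNA, where 2 features in each case passed as higher.

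**Figure D4:**
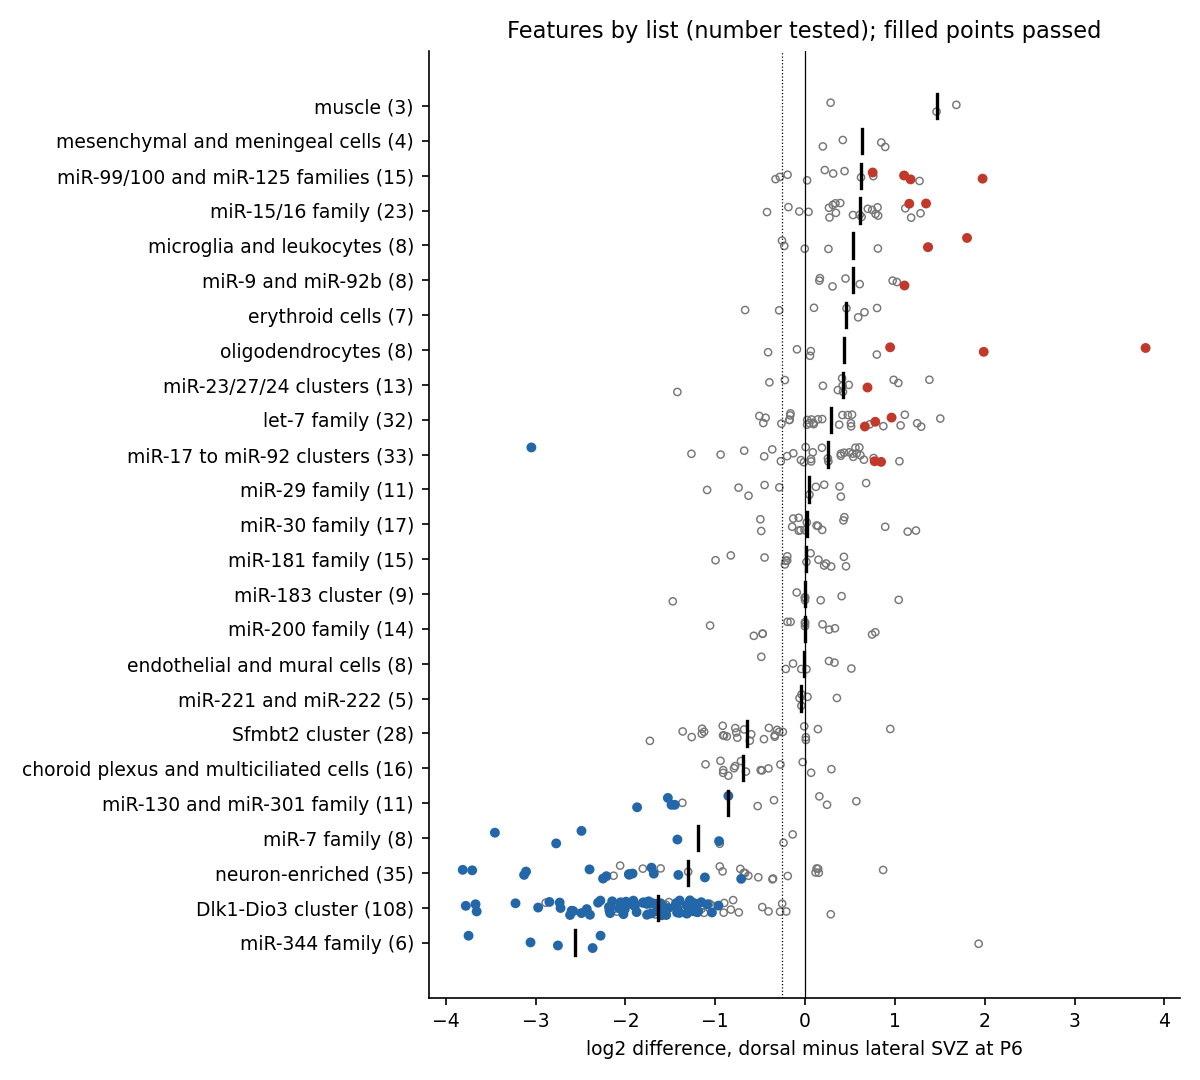
Log2 difference (dorsal minus lateral SVZ at P6) of every tested feature in 25 lists; filled points passed, black bars are list medians and the dotted line is the median of all features. The miR-344, Dlk1-Dio3, neuron-enriched and miR-7 lists have the lowest medians (-2.56, -1.64, -1.30 and -1.19), and filled points on the dorsal side are few.

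On the dorsal side the largest difference was that of miR-219-3p, a microRNA of differentiating oligodendrocytes. Its scores were 1900, 1532 and 1882 in the dorsal and 91, 163 and 136 in the lateral wall, 13.6-fold by the means (3.79 ± 0.37, limma adjusted p = 8.41e-08). The lowest dorsal library stood well above the highest lateral one. The hairpin pre-mir-219-2 followed, with 383, 355 and 283 against 93, 96 and 67 (1.99 ± 0.42, limma adjusted p = 0.00127).

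The other products named for miR-219 did not pass. miR-219-5p, the arm in capitals in the hairpin above, scored 130, 148 and 117 in the dorsal and between 103 and 148 in the lateral wall (0.06 ± 0.41, limma adjusted p = 0.955). pre-mir-219-1 had a dorsal mean of 194 ± 23.6 (SD, n = 3) against lateral scores of 277, 276 and 222 (-0.41 ± 0.45), and miR-219-3p* had 55, 98 and 95 against a lateral mean of 85.7 ± 44.5 (SD, n = 3) (0.06 ± 0.55). miR-219-5p can be cut from either hairpin.

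miR-338 is the other microRNA that oligodendrocytes require. miR-338-5p scored 154, 123 and 149 against 79, 61 and 80 (0.95 ± 0.32, limma adjusted p = 0.0411), a call that was lost whichever of the 6 libraries was left out (adjusted p from 0.0536 to 0.156). The more abundant arm miR-338-3p overlapped, with 1413, 895 and 1234 against 1159, 1408 and 1152 (-0.09 ± 0.27). Of the 8 oligodendrocyte features 3 were higher (37.5%, beside 2.73% of all features), 0 lower and 5 not passing, with a median of 0.43. With TMM factors 4 were higher. Their summed score was 3469 to 4345 in the dorsal and 1883 to 2284 in the lateral libraries. Most of that gap lay in miR-219-3p alone, with means of 1771 and 130, so the sum does not describe the list as a whole.

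miR-195 belongs to the miR-15/16 family, brakes on cell division, and scored 10429, 8196 and 10898 in the dorsal and 4395, 5119 and 3704 in the lateral wall (1.16 ± 0.22, limma adjusted p = 0.000384). The walls did not overlap. Its opposite arm miR-195* had a dorsal mean of 198 ± 10.8 (SD, n = 3) against 80, 57 and 101 (1.35 ± 0.41, limma adjusted p = 0.0214), and its call was lost without dorsal library 2 or 3 or lateral library 2 (adjusted p up to 0.114).

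miR-497, from the same small cluster on chromosome 11 and with the same seed as miR-195, did not pass, at 1329, 1007 and 1162 against 944, 1419 and 1070 (0.04 ± 0.25). Of the 23 family features 2 were higher (8.7%, beside 2.73% of all features), 0 lower and 21 not passing, with a median of 0.61. The count of higher features was 8 with TMM factors and 9 relative to the median microRNA, beside 84 and 90 of all 807. Of the 6 tested forms with the seed AGCAGCA, miR-195 was the only one that passed.

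miR-9* scored 74016, 29383 and 43760 in the dorsal and 19409, 23653 and 20770 in the lateral wall, again without overlap (1.11 ± 0.27, limma adjusted p = 0.00486). miR-9, the other arm of the same hairpins and a regulator of neural progenitors, had 177274, 126923 and 161185 against 125075, 124814 and 122869 and did not pass (0.31 ± 0.32). Its rank was 4 in all 3 lateral libraries and 3 or 4 in the dorsal ones. At such ranks a score can move only in steps, so the arms are not measured on equal terms. The hairpins pre-mir-9-1 and pre-mir-9-3 had log2 differences of 0.98 and 1.02 and did not pass (limma adjusted p = 0.101 and 0.208).

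The miR-99/100 and miR-125 families, which share clusters with let-7 genes, had 4 of 15 features higher (26.7%, beside 2.73% of all features). None was lower, and the median was 0.62. The count of higher features was 7 with TMM factors and 7 relative to the median microRNA, beside 84 and 90 of all 807. miR-100 scored 113681, 90656 and 103363 in the dorsal and 61002, 60875 and 59927 in the lateral wall (0.75 ± 0.17, limma adjusted p = 0.00225), at rank 9 in each lateral library and rank 5 or 6 in the dorsal ones. miR-99a, which has the same seed, scored 279279, 368070 and 362612 against 254000, 253472 and 158385 (0.62 ± 0.23, limma adjusted p = 0.0568). Its walls did not overlap, but it did not pass.

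From the Mir99a region, the opposite arm miR-99a* had 3677, 3618 and 4716 against 2324, 1780 and 1530 (1.10 ± 0.38), and the hairpin pre-mir-99a 63, 79 and 48 against 21, 10 and 16 (1.98 ± 0.63). pre-mir-125b-2, from the same host transcript, had 471, 272 and 437 against 163, 165 and 179 (1.18 ± 0.41). The walls were separate in all 3, but each call was lost in 4 or 5 of the 6 omissions of 1 library, with adjusted p up to 0.146, 0.122 and 0.149. miR-125b-5p, the first-ranked feature of all 3 lateral libraries, did not pass (-0.28 ± 0.19).

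In the let-7 family, which accumulates as cells differentiate, 3 of 32 features were higher (9.38%, beside 2.73% of all features). A further 29 did not pass, 0 were lower, and the median was 0.29. The count of higher features was 12 with TMM factors and 12 relative to the median microRNA, beside 84 and 90 of all 807. let-7c scored 30382, 24670 and 21137 against 15527, 13390 and 19067 (0.67 ± 0.23, limma adjusted p = 0.0405). let-7a-1* scored 4752, 3329 and 4119 against 1861, 2781 and 2473 (0.78 ± 0.24, limma adjusted p = 0.023). Without dorsal library 1 or lateral library 1 both calls were lost, without dorsal or lateral library 2 that of let-7c and without dorsal library 3 that of let-7a-1*, with adjusted p up to 0.169 for let-7c and 0.131 for let-7a-1*. The third, pre-let-7b, was lost in every omission (adjusted p from 0.0634 to 0.149).

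Within the miR-17 to miR-92 clusters, which promote proliferation, 2 of 33 features were higher (6.06%, beside 2.73% of all features). Lower was 1 (3.03%, beside 17.6%), 30 did not pass, and the median was 0.25. With TMM factors and relative to the median microRNA 8 were higher and 0 lower, beside 84 and 90 of all 807 higher. miR-25, encoded within the DNA replication gene Mcm7, scored 5186, 5402 and 6203 in the dorsal and 3391, 2932 and 3003 in the lateral wall (0.85 ± 0.22, limma adjusted p = 0.00768). miR-92a scored 22133, 11346 and 20124 against 10901, 10236 and 9030 (0.78 ± 0.26, limma adjusted p = 0.0408). The walls were apart in both, though dorsal library 2 of miR-92a lay close to the lateral values, and its call was lost in 5 of the 6 omissions (adjusted p up to 0.178).

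miR-92b, with the same seed, did not pass (0.16 ± 0.23), nor did miR-17 (0.49 ± 0.25). The lower feature, pre-mir-18b, lost its call in all 6 omissions (adjusted p from 0.06 to 0.157).

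Markers of microglia and leukocytes were partly higher in the dorsal wall. pre-mir-142, the hairpin of a microRNA made by blood-derived cells, scored 806, 517 and 518 against 264, 243 and 194 (1.37 ± 0.33, limma adjusted p = 0.00375). miR-142-5p scored 108, 92 and 36 against 18, 15 and 28 (1.80 ± 0.61, limma adjusted p = 0.0398), lost in 4 of the 6 omissions with adjusted p up to 0.15, and miR-142-3p 82, 53 and 68 against 34, 23 and 20 (1.38 ± 0.53, limma adjusted p = 0.0718). All 3 forms had dorsal libraries above every lateral one. The myeloid marker miR-223 overlapped, with 396, 333 and 365 against 1273, 330 and 185.

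Of 8 microglia and leukocyte features 2 were higher (25%, beside 2.73% of all features) and 6 did not pass. With TMM factors 3 were higher. Their summed score, 1946 to 2656 in the dorsal and 1347 to 2585 in the lateral libraries, overlapped. The part of these cells in the other dorsal-side differences was not tested.

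The remaining dorsal-side calls were miR-574-3p, miR-22, miR-23a, miR-1937b and miR-1224*. miR-574-3p scored 651, 533 and 887 against 238, 339 and 249 (1.31 ± 0.36, limma adjusted p = 0.00982; 0.067 without dorsal library 3). miR-23a, of a cluster with miR-27a and miR-24, scored 8365, 6526 and 8075 against 4776, 4584 and 4781 (0.69 ± 0.20, limma adjusted p = 0.0132), and its call was lost without dorsal library 1 or 3 (adjusted p up to 0.0596). In both the walls were separate.

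miR-22 scored 459, 416 and 411 against 335, 105 and 198 (1.16 ± 0.36), and miR-1937b 843, 404 and 717 against 181, 316 and 383 (1.16 ± 0.40). These were lost in 3 and 4 of the 6 omissions, with adjusted p up to 0.195 and 0.217. miR-1224*, chosen after its values were seen, was near the floor, at 40, 34 and 9 against 5, 1 and 6. Of 21 dorsal-side calls that the naming rule covered, 7 passed in each of the 6 omissions: miR-219-3p, pre-mir-219-2, pre-mir-142, miR-195, miR-9*, miR-100 and miR-25. Of 36 lateral-side calls it covered, 30 did. In a fit over the 6 P6 libraries alone 13 of these 57 calls were lost, among them pre-mir-344-1, miR-1247, miR-376a, miR-124 and miR-9*. With a replicate block added to that fit 28 were lost, among them miR-195, miR-9*, miR-100 and miR-25.

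Other families showed no call in either direction. They were the miR-29 family (11 features tested, median 0.05), the miR-30 family (17, 0.02), the miR-181 family (15, 0.02), miR-221 with miR-222 (5, -0.04) and the intronic Sfmbt2 cluster (28, -0.65). miR-29a, which accumulates in maturing neurons and glia, scored 98226, 77228 and 89311 against 67317, 89149 and 87760 (0.12 ± 0.19). With other scalings a few members passed, 1 each of the miR-29 and miR-181 families and 2 of the miR-30 family being higher with TMM factors.

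The miR-200 family, known in olfactory neurogenesis, was scarce at P6: the summed score of its 14 tested features had a median of 131 over the dorsal libraries and 125 over the lateral ones, and none passed. The 9 features of the miR-183 cluster, of sensory cells, summed to 57 to 136 and 36 to 136, and none passed. Members of both lists, such as miR-200c* and miR-96*, reached the minimum for testing only through OB. They were listed at 0 in all 6 libraries and could not pass, so the lack of calls is little test of these lists.

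Markers of other cells that a dissection can hold gave the following sums over tested features. Choroid plexus and multiciliated cell microRNAs summed to 31804 to 37335 in the dorsal and 45166 to 59924 in the lateral libraries, which did not overlap. Of the 16 features 14 had negative differences and 0 passed, with a median of -0.69, or -0.31 with TMM factors and -0.25 relative to the median microRNA. miR-449a, of multiciliated cells such as ependyma, scored 17532, 13999 and 19404 against 37465, 25107 and 33691 (-0.91 ± 0.40, limma adjusted p = 0.119). The summed score of this list was thus higher in every lateral library, and its part in the lateral-side calls was not tested. A large part of the gap lay in miR-449a, with means of 16978 and 32088, so the sum does not describe the list as a whole. miR-204, of the same list, had a log2 difference of -0.03 and did not pass.

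Erythroid features (7 tested) summed to 1776 to 5256 and 1664 to 2101, endothelial and mural features (8) to 15668 to 22001 and 15207 to 19836, and mesenchymal and meningeal features (4) to 261 to 421 and 154 to 321. Muscle features (3) summed to 23 to 29 and 5 to 21. Of 13 named Hox cluster features, markers of hindbrain and spinal cord, 7 were above 0 in the P6 SVZ libraries but under the minimum for testing. The single tested one, miR-10b, reached that minimum only through OB and was listed at 0 in all 6 libraries. None of the tested features of these lists passed with the deposited scaling. Under each of the 3 other scalings 1 erythroid feature was higher. With TMM factors and relative to the median microRNA 1 endothelial and mural feature was higher, and relative to the median microRNA 1 mesenchymal and meningeal feature. The erythroid miR-451 scored 5051, 1590 and 3022 in the dorsal and 1525, 1563 and 1918 in the lateral libraries (0.80 ± 0.30, limma adjusted p = 0.059). Among neural microRNAs, miR-125b-5p ranked 1 or 2 and miR-9 ranked 3 or 4 in all 6 libraries. miR-124 ranked 16, 5 and 8 in the dorsal and 3, 8 and 2 in the lateral libraries.

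Arms, hairpins and neighbours gave a second view of the calls. Of 193 pairs of arms from the same hairpin name, both arms passed in 28, always in the same direction, and 1 arm alone passed in 38. In these counts miR-219-3p was paired both with miR-219-5p and with miR-219-3p*. Among hairpins with a tested mature form, 33 of 207 passed, and for 23 of the 33 a mature form passed the same way, with 0 in opposite directions. RefSeq sequences were matched for 388 of the 580 mature and star forms, among them 103 forms that passed.

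By these, 14 seed groups of at least 3 tested forms were found, 6 of them with a passing form, and 0 held calls in both directions. Of 34 groups of neighbouring genes within 10 kb, 13 held a call and 0 held calls in both directions. As all but 22 of the 164 calls were in one direction, agreement within groups is partly set by that balance.

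The same contrast at P1, in other libraries, gave 181 calls (22.4%), 14 higher (1.73%) and 167 lower (20.7%) in the dorsal wall. Of the 164 features called at P6, 158 had the same sign at P1, and 116 were also called there in the same direction, 109 lower and 7 higher. Both ages used one estimate of spread per feature, so these counts are not independent. miR-153 scored 113, 125 and 121 in the dorsal and 2371, 2729 and 1772 in the lateral libraries at P1. The change of its wall difference did not pass (0.42 ± 0.37, limma adjusted p = 0.853).

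Whether the wall difference itself changed between P1 and P6 was tested as an interaction, which passed for 2 of 807 features (0.248%), while 71 had an unadjusted p under 0.05. miR-708 scored 8217, 5943 and 7644 in the dorsal and 7059, 6875 and 7291 in the lateral wall at P1, where the walls overlapped, against the separate walls at P6. The change of its wall difference was -2.24 ± 0.28 (limma adjusted p = 4.61e-05, and 8.42e-06 to 0.00616 over its alternatives).

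The second was miR-219-3p, at 113, 280 and 83 in the dorsal and 61, 89 and 44 in the lateral wall at P1, a change of 2.65 ± 0.53 (limma adjusted p = 0.0195, and 0.000334 to 0.256 over its alternatives). That call was lost without dorsal P1 library 1 (0.0587) or 3 (0.0625), lateral P1 library 1 (0.0528) or 2 (0.0518), dorsal P6 library 3 (0.0731) or lateral P6 library 1 (0.0873). It was also lost in a fit over the 12 SVZ libraries alone (0.256), without a mean-variance trend (0.0615) and without dorsal P1 library 1 and dorsal P6 library 2 together (0.0574).

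Close behind, and not passing, were miR-338-5p and miR-344. miR-338-5p had 34, 34 and 25 in the dorsal and 68, 62 and 68 in the lateral wall at P1, the reverse of its order at P6 (change 2.03 ± 0.46, limma adjusted p = 0.0559). miR-344 had 1535, 1719 and 2229 against 5769, 6295 and 4223 at P1, lateral above dorsal at both ages (change -1.49 ± 0.36, limma adjusted p = 0.0995). For miR-7a the change was -0.46 ± 0.38 (limma adjusted p = 0.806), with 860, 661 and 505 against 3525, 3228 and 3059 at P1.

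**Figure D5:**
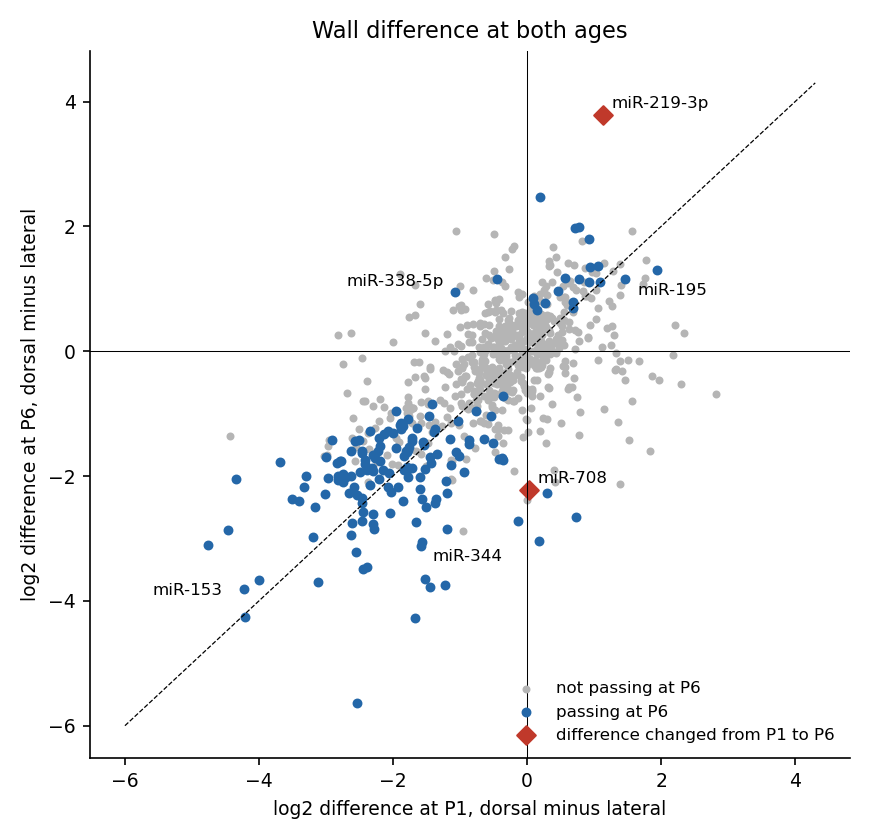
Log2 difference between the walls (dorsal minus lateral) at P6 against that at P1, for 807 features; the dashed line marks equal differences. Most features that passed at P6 lie in the lower left, and the diamonds are miR-708, at 0.03 on the P1 axis and -2.22 on the P6 axis, and miR-219-3p, at 1.14 and 3.79.

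Levels in the older tissues, given as a description since age and tissue differ together, placed the wall-biased microRNAs differently. miR-153 scored 395 to 548 in the 3 OB libraries at P15 and 542 to 691 at P28, and 386 in the single RMS library at P15, all between the dorsal and the lateral P6 scores. In RMS at P28 it scored 834 and 571, also between the walls.

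miR-344 scored 5992 to 7571 in OB at P15 and 7227 to 8335 at P28, between the P6 walls, and 4682 in RMS at P15. Of its RMS libraries at P28 one, at 8279, lay between the walls, and the other, at 12994, above every lateral P6 library. miR-551b at 2463 to 2832 in OB at P15 and 1652 to 1914 at P28 lay between the walls. In RMS it scored 1014 at P15 and 953 and 808 at P28, within or below the dorsal P6 scores.

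miR-219-3p scored 1603 to 1784 in OB at P15 and 2667 to 2790 at P28, and 871 in RMS at P15 and 4864 and 2246 at P28. These scores were above all lateral P6 libraries and, at P15 in OB, in the range of the dorsal ones. miR-193b scored 926 in RMS at P15 and 1007 and 1051 at P28, below every P6 SVZ library. miR-449a was scarce in the bulb, at 53 to 89 in OB at P15, against at least 13999 in every P6 SVZ library.

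Libraries of the same wall correlated more closely than those of different walls. Over the 807 features, on log2(score + 1), the dorsal P6 libraries correlated pairwise with r of 0.947 to 0.956 and the lateral ones with r of 0.965 to 0.971, while pairs across the walls gave 0.915 to 0.940. Dorsal library 2 stood apart in class makeup, with small nucleolar RNA at 9.42% of its total score against 1.86% to 3.05% in the other 5. Without it, and without a dorsal P1 library that also stood apart, 49 of the 57 named calls were kept and 0 were reversed. With 3 libraries against 3, an exact permutation test of a single feature cannot give a p under 0.1, and so none was used.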

How the data were processed

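Small RNA from dissected CD1 mouse tissue was sequenced on a SOLiD 5500XL machine, per the labels' protocols. The deposited values are scores: normalized read counts that the authors rounded to whole numbers. Bowtie, DESeq and mm9 are named in the submitters' processing notes, without roles. Ranked values follow a common curve times 1 factor per library, so column totals are not depths. The read depth is unknown, count models were not used, and no counting interval is given.

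Log2(score + 1) was fitted in limma 3.58.1 (R 4.3.3) with 8 group means over 21 libraries (13 residual degrees of freedom) and a mean-variance trend. Tests were two-sided and adjusted (Benjamini-Hochberg) over 807 features with scores of at least 10 in at least 3 libraries. In simulated data of 807 features, 50 were changed at each of 4 sizes. The fit recovered 34%, 74%, 88% and 94% of those changed by 1, 2, 3 and 4 on the log2 scale. There were 12 false calls among the features left unchanged.

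Members, 26 lists, naming rule and tests were chosen with earlier results of these data known. Named features were the 15 largest differences in each direction among passing, non-overlapping features whose higher wall averaged 50 or more, up to 4 features per list, all tested members of the miR-7, miR-200 and miR-344 families and the miR-183 cluster, the 10 highest mature forms, passing interactions (up to 5), and the 3 seed groups and 3 neighbour groups with the most calls. Old strand names were matched to RefSeq arms by hand. Alternatives were other pseudocounts, filters, scalings, fits, a replicate block, and each library left out.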

Additional observations from a re-analysis of the deposited data

Results flagged for a closer look

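The difference between the walls changed between P1 and P6 for 2 microRNAs, by a test of the change itself (limma, adjusted over 807 features). For miR-708 the change was -2.24 (adjusted p = 4.61e-05): at P1 the walls overlapped (log2 difference 0.03 ± 0.20), and at P6 all 3 dorsal libraries were below all 3 lateral ones (-2.22 ± 0.20). For miR-219-3p the change was 2.65 (adjusted p = 0.0195): the dorsal excess was 1.14 ± 0.37 at P1 and 3.79 ± 0.37 at P6, and the call was lost in 6 of the 12 omissions of 1 SVZ library, with adjusted p up to 0.0873.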

How the results depend on the processing

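No named call changed sign under any alternative. The 164 calls became 81 with a replicate block on the 6 P6 libraries (3 higher, 78 lower, 37 of the Dlk1-Dio3 cluster) and 186 with the block on all 21 libraries. Whether the numbers of the titles pair the libraries is not stated and was not settled. Deviations of same-numbered libraries correlated at only 0.05, 0.06 and 0.03, none over 0.1, but each correlated best with its own number. Correlations this low do not exclude a pairing. The block on the 6 libraries left miR-195 (adjusted p = 0.0561), miR-9* (0.146), miR-100 (0.126) and miR-25 (0.0524) without a call. The column names of dorsal and lateral P6 libraries 1 and 2 share the numbers 6 and 8. At P1, dorsal library 1 and lateral library 2 share the number 3, and dorsal and lateral library 3 share the number 10. No label says what these numbers mark. A replicate block by shared column number, over 21 libraries and chosen after seeing the data, gave 162 calls, 19 of them higher, and kept 53 of 57 named calls. The higher calls, 22 as deposited, were 84 with TMM factors, 90 relative to the median microRNA and 39 after division by the total microRNA score. Without 1 P6 library they were 11 to 19 (11 without dorsal library 1, 12 without dorsal library 3, 13 without lateral library 2), all calls 116 to 148, lower calls 104 to 130 and Dlk1-Dio3 calls 51 to 70. The changes of the wall difference, 2 as deposited, were 7 with TMM factors, 5 relative to the median microRNA, 4 after division by the total, 1 in the fit over 12 SVZ libraries, 5 with the replicate block on 21 libraries, 1 to 3 without 1 library, and 1 without dorsal P1 library 1 and dorsal P6 library 2 together, an alternative chosen after seeing the data that gave 23 higher calls. Of 57 named calls, 29 (the block on 6 libraries) to 57 were kept per setting. The cause was not tested. Depth is unknown, so features near 0 cannot be told from absence, and values at the top ranks move only in steps.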
